A study of Mus musculus with 1536 samples.

Results

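Chemokines and atypical chemokine receptors were followed as 9 genes in single lymphatic endothelial cells (LECs) of the adult nasopharynx. The 9 were listed by name, as ligands (*Ccl21a*, *Cxcl12*, *Cx3cl1*, *Ccl2*, *Cxcl1*, *Cxcl10*) and as receptors (*Ackr2*, *Ackr3*, *Ackr4*), and all 9 are among the 23168 genes of the adult expression matrix. The LECs came from the pooled nasopharyngeal mucosa of 30 C57BL/6 mice (C57BL/6J in the methods) of both sexes at 10–12 weeks of age, sorted as CD31+ PDPN+ cells into plates and sequenced by Smart-seq3, which makes a library from full-length cDNA in each well. There was no treatment or genetic change, and aged mice were not analysed here. No cell carries the name of its mouse or plate, so all cells are 1 sample. For that reason no p-value is given, and every interval is an exact (Clopper–Pearson) 95% interval that covers counting error only.

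Chemokines are small secreted proteins that guide leukocytes through receptors coupled to G proteins. Lymphatic endothelium is known for CCL21, which draws dendritic cells and T cells that carry CCR7 into lymphatic vessels. Atypical chemokine receptors bind chemokines without the usual G protein signal and take them up, so that they shape gradients: ACKR2 binds inflammatory CC chemokines such as CCL2, ACKR3 binds CXCL12, and ACKR4 binds CCL19, CCL21 and CCL25.

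*Ccl21a* (ENSMUSG00000094686.1) lies on chromosome 4 at 42772860–42773993 of GRCm38, on the minus strand, and is 1 of several near-identical copies. In GENCODE M21 the coding sequences of *Ccl21a* and *Ccl21b* differ at 2 bases, T84A and C194T, counted from the A of the start codon with the *Ccl21a* base first. The *Ccl21a* bases lie at 42773747 and 42773543 of chromosome 4. The stretch around each difference is shown because only reads that cross such a base can tell the coding parts apart. The differing base is in capitals, with 15 bases of coding sequence on each side.
Ccl21a, first difference: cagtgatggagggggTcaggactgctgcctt
Ccl21b, first difference: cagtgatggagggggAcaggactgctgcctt
Ccl21a, second difference: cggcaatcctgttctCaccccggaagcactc
Ccl21b, second difference: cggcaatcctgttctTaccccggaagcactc
The coding sequences of *Gm10591*, *Gm13304* and *Gm21541* had 0 differences from *Ccl21b*. Of all 50-base windows of the *Ccl21a* transcript, 71.6% also occurred in another copy, and of all 100-base windows 50.3% did.

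The deposited counts put nearly all of the family in 1 gene. *Ccl21a* had 91363 reads and *Ccl21b* 250, which is 0.274% as many, while *Ccl21c* had 0.338% and *Gm10591* 0.546% as many as *Ccl21a*. *Ccl21b* was found in 17.9% of cells, *Ccl21c* in 14.4% and *Gm10591* in 7.36%, with medians of 0.0171, 0.0198 and 0.0204 ln among those cells. The 3 copies together held 1.14% of the family's reads, and 98% of the cells with *Ccl21b* also had *Ccl21a*. How reads that fit several copies were counted is not stated, so *Ccl21a* below stands for the reads given to that gene. Part of them may come from the other copies, and reads left out for fitting several copies would lower its level. *Gm13304* and *Gm21541* were not analysed here.

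The other 8 genes are placed as follows in GRCm38. *Cxcl1* lies at 90891241–90893115 (plus strand) and *Cxcl10* at 92346638–92348889 (minus strand) of chromosome 5. *Cxcl12* lies at 117168535–117181367 of chromosome 6, *Cx3cl1* at 94772009–94782427 of chromosome 8 and *Ccl2* at 82035571–82037453 of chromosome 11, all on the plus strand. *Ackr3* lies at 90203980–90216751 of chromosome 1 and *Ackr2* at 121898355–121911074 of chromosome 9 (plus strand), and *Ackr4* at 104084157–104126933 of chromosome 9 (minus strand). All are annotated as protein-coding.

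The cells carried the genes that define LECs. *Mmrn1* was found in 100% of cells, *Flt4* in 99.8% and *Prox1* in 97.7%. Reads per cell ran from 7433 to 3524358 (median 350746). A gene that is low can therefore be missed in a shallow cell, and shares of cells are also given after each cell was thinned to 20000 reads, which left out 51 cells. *Ptprc*, the pan-leukocyte marker, had no read in any cell, and 54 cells had a value above 1 for a marker of immune, fibroblast, epithelial, mural or Schwann cells. Blood endothelial markers were not part of that count. Of these, *Emcn* was found in 94.2% of cells and *Plvap* in 77.8%, but *Flt1* in 2.49% and *Ly6c1* in 0.594%. The unit throughout is the natural log of 1 plus reads per 10000, written ln, so that a value of 1 is about 1.72 reads per 10000.

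By share of cells the 9 genes fell into 3 levels, and the homeostatic ligand *Ccl21a* stood first. *Ccl21a* was found in 79.2% of LECs (95% interval 76.3–81.9), with a mean of 0.862 ± 0.748 ln (SD over cells), and its median was 0.841 and its maximum 3.27. It was followed by *Ackr2* in 69% of cells (65.8–72.1) and *Ackr3* in 66.9% (63.6–70.04), whose intervals overlap. By mean *Ackr3* stood above *Ccl21a*, with 4.66 against 2.17 reads per 10000. The middle level held *Cxcl12*, the ligand of CXCR4 and ACKR3, in 29.7% (26.6–32.9), *Ccl2*, which draws monocytes, in 21.5% (18.8–24.4) and *Cxcl1*, which draws neutrophils, in 18.4% (15.8–21.2). The intervals of *Ccl2* and *Cxcl1* overlap, and that of *Cxcl12* lies above both.

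The last 3 genes were rare. *Ackr4* was found in 10.5% of cells (8.47–12.7) and *Cx3cl1*, a chemokine made as a membrane protein, in 5.70% (4.23–7.49). *Cxcl10*, the interferon-induced ligand of CXCR3, had 7 reads in 2 cells, which is 0.238% (0.0288–0.855). At 20000 reads per cell the shares were 64.3% for *Ccl21a*, 50.8% for *Ackr2*, 45.8% for *Ackr3* and 20.9% for *Cxcl12*. They were 12.9% for *Ccl2*, 11.8% for *Cxcl1*, 4.93% for *Ackr4*, 2.65% for *Cx3cl1* and 0.126% for *Cxcl10*. The order of the 9 genes was thus the same at equal depth.

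By mean level per kilobase of exon the order was another one. The length was that of all exons of a gene in GENCODE M21, over all its transcripts, such as 8.18 kb for *Cxcl12* and 5.38 kb for *Ackr4*. A single transcript can be shorter, and the annotation used for counting is not given, so this order depends on that choice. *Ccl21a* had a mean of 2.5 reads per 10000 per kb and *Ackr3* 1.39. *Ccl2* followed with 0.697, *Ackr2* with 0.676 and *Cxcl1* with 0.374. *Cxcl12* was at 0.0574, *Ackr4* at 0.0559, *Cx3cl1* at 0.0109 and *Cxcl10* at 0.000445. *Cxcl12* was found in more cells than *Ccl2* but had the lower mean, 0.469 against 0.793 reads per 10000, as well as the lower level per kilobase. *Lyve1*, the hyaluronan receptor used below to split the cells, was at 4.01 on the same scale.

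The genes also differed in how evenly the cells shared their reads. The 8 highest cells held 6.78% of the summed level of *Ccl21a*, 8.78% of *Ackr2* and 11.5% of *Ackr3*. For *Cxcl12* they held 21.9%, for *Ccl2* 31.7% and for *Cxcl1* 42.4%. For *Ackr4* and *Cx3cl1* they held 65.4% and 67.3%. Means of the last 2 genes thus rest on a few cells, and shares of cells are the safer measure for them. *Ackr3* had the widest spread of all 9 genes, 0.906 ± 1.16 ln. Its median over all cells was 0.112 ln, while 35.9% of cells lay above 1 and the highest reached 4.41.

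Single cells differed in how many of the receptors and ligands they held. None of the 3 receptors was found in 10.2% of cells, 1 in 37.9%, 2 in 47.3% and all 3 in 4.63%. Of the 6 ligands, 9.98% of cells had none, 42.5% had 1, 33.1% had 2, 11.9% had 3, 2.14% had 4 and 0.356% had 5.

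The cells were then split by the level of *Lyve1*, which is high in initial lymphatics and low in collecting vessels. A value above 1 was held by 48.3% of cells, and of the rest 74.5% had at least 1 *Lyve1* read. The cut divides a range and no cell type, and 100 cells lay between 0.5 and 1.5. The groups had medians of 297641 and 376870 reads and 4167 and 4207 genes per cell. Ratios below are the log2 of the mean reads per 10000, plus 0.1, in the cells above the cut over that in the rest. Genes were compared if found in at least 10% of all cells, which 9655 genes were, and a ratio counted as past the limit at 0.5 or more on the log2 scale.

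*Ccl21a* and *Cxcl12*, the homeostatic ligands, were higher in the LECs with *Lyve1* above 1. *Ccl21a* was found in 90.4% (87.1–93.1) of them and in 68.7% (64.1–73.1) of the rest, with means of 2.92 and 1.47 reads per 10000 and a log2 ratio of 0.95. Among cells with a read, its median was 1.29 ln above the cut and 0.794 ln in the rest. The difference in shares was wider at 20000 reads, 84% (79.9–87.6) against 46.6% (41.8–51.6). Before thinning, the cells above the cut had fewer reads. With the copies *Ccl21b*, *Ccl21c* and *Gm10591* summed in, the log2 ratio was again 0.95. These copies held 1.14% of the family's reads, so the sum could hardly move the ratio. It does not test how reads that fit several copies were assigned.

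*Cxcl12* was found in 36.1% (31.4–41) against 23.7% (19.8–28), with 0.602 and 0.345 reads per 10000 and a log2 ratio of 0.66. Thinned, the shares were 27.5% (23–32.3) and 14.9% (11.6–18.7). The direction of *Cxcl12* depended on where *Lyve1* was cut, as the log2 ratio was −0.19 between cells with and without any *Lyve1* read. *Cx3cl1* did not pass the filter on low values. It was found in 6.14% (4.01–8.93) and 5.29% (3.38–7.83), so that a difference was not detectable at this depth.

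Of the inducible ligands, *Cxcl1* was lower in the cells with *Lyve1* above 1. It was found in 14.7% (11.4–18.6) of them and in 21.8% (18.04–26.02) of the rest, with 0.438 and 0.948 reads per 10000 and a log2 ratio of −0.96. The intervals overlap slightly for all reads and not at 20000 reads, where the shares were 8.0% (5.46–11.2) and 15.1% (11.8–18.96). *Ccl2* was found at like shares, 20.6% (16.8–24.9) and 22.3% (18.5–26.5). Its means were 0.627 and 0.948 reads per 10000, a log2 ratio of −0.53 that was −0.20 without the 1% of cells with most *Ccl2*. The shares of *Ccl2* thus overlapped, and its ratio rested on a few high cells. *Cxcl10* had its 2 cells above the cut and none in the rest, where a count of 0 allows a share of up to 0.690% (taken as 3 counts).

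The 3 receptors went in 3 directions. *Ackr2* was found in 81.8% (77.7–85.4) against 57% (52.2–61.7), with 3.23 and 1.07 reads per 10000 and a log2 ratio of 1.51. At 20000 reads its shares were 71.5% (66.6–75.99) and 32.2% (27.7–36.9), and values above 1 were held by 52.6% and 18.2% of cells. The groups overlapped in range, with highest values of 3.55 and 2.86 ln.

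*Ackr3* hardly differed, with shares of 66.1% (61.3–70.7) and 67.6% (62.96–71.97), means of 4.80 and 4.54 reads per 10000 and a log2 ratio of 0.08. *Ackr4* was found in 6.88% (4.62–9.79) against 13.8% (10.7–17.4), and at 20000 reads in 1.07% (0.291–2.71) against 8.41% (5.93–11.5). Of the 28 cells with *Ackr4* above 1, 4 had *Lyve1* above 1 and 24 did not. Its means were 0.0474 and 0.538 reads per 10000, a log2 ratio of −2.11 that was −0.82 without the 1% of cells with most *Ackr4*. The lower level of *Ackr4* beside *Lyve1* was therefore seen in shares and in means, but its size rested on a few cells. The exons of *Ackr4* overlap those of *Acad11* on the other strand, and use of strand in the counting is not stated.

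Of the 7 genes that passed the filter, 3 were higher (*Ccl21a*, *Cxcl12*, *Ackr2*), 3 lower (*Ccl2*, *Cxcl1*, *Ackr4*) and 1 in between. *Ackr4*, at 10.5% of all cells, passed the filter only through the rest, with 13.8% there and 6.88% above the cut. Over all 9655 genes, 3.53% were higher and 3.3% lower by as much, with a median log2 ratio of 0.01. Values that moved with the split were the dissociation list of 25 immediate-early and heat-shock genes, with a mean sum of 258.9 reads per 10000 above the cut and 311.1 in the rest, and the NF-kB list, with 31 and 35.4. All 25 dissociation genes were found in both groups, and the sum ran from 3.55 to 1076.98 above the cut and from 1.44 to 1190.7 in the rest. Without the highest of 4 equal groups of cells by dissociation genes the log2 ratios were 0.86 for *Ccl21a*, 1.32 for *Ackr2*, −0.73 for *Cxcl1* and −1.77 for *Ackr4*. Without the 54 cells with a marker of another cell type they were 1.0, 1.57, −0.84 and −2.23 in the same order. The fibroblast list of 5 genes had a mean sum of 0.187 (0 to 5.96) above the cut and 0.528 (0 to 132.98) in the rest. The list of 7 lymphatic endothelial markers other than *Lyve1* also moved with the split, with a mean sum of 101.8 reads per 10000 (23.2 to 240.6) above the cut and 71.1 (11.9 to 221.5) in the rest. For 4 blood endothelial markers the mean sums were 6.66 (0 to 29.5) and 8.47 (0 to 43.02), and for 5 immune markers, of which *Ptprc* was at 0, they were 0.11 (0 to 32.4) and 0.0187 (0 to 3.37). The part of these lists in the ratios was not tested.

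**Figure D1:**
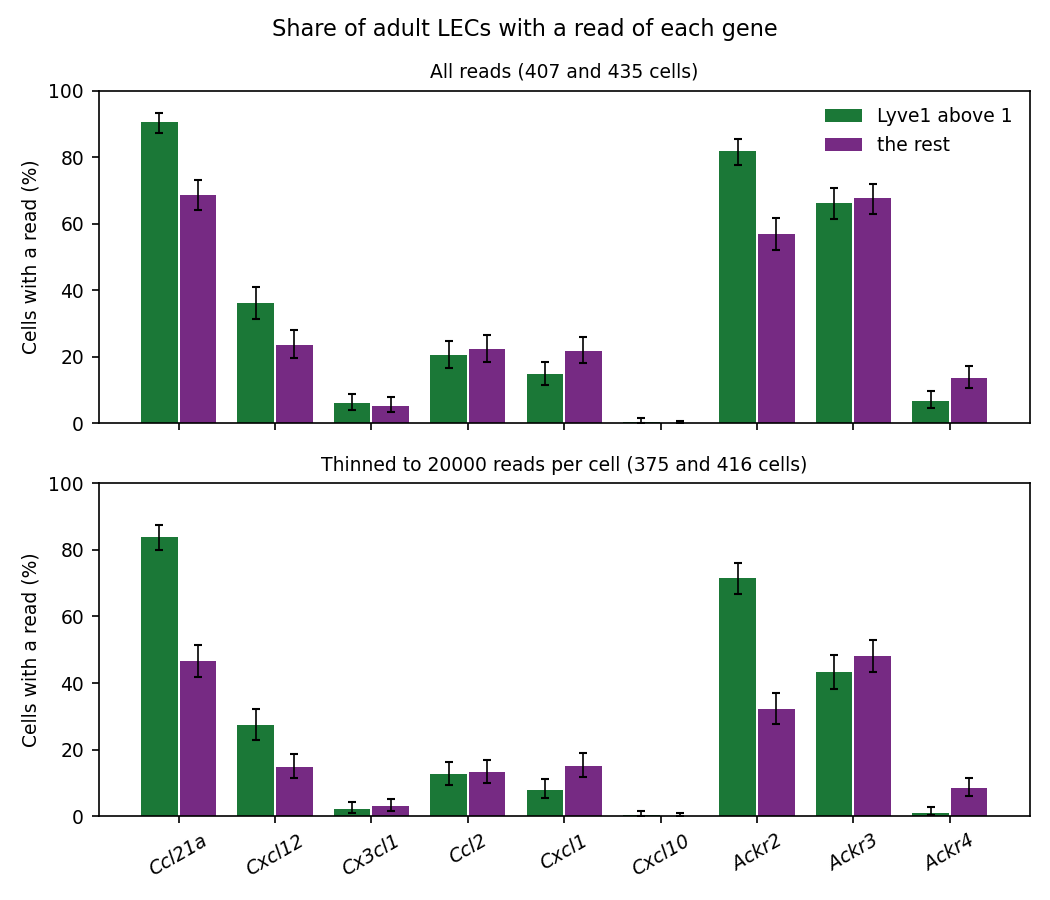
Bars give the percent of cells with at least 1 read of each gene among LECs with *Lyve1* above 1 (green) and the rest (purple), with exact 95% intervals, from all reads (top) and at 20000 reads per cell (bottom). *Ccl21a*, *Cxcl12* and *Ackr2* are found more often with *Lyve1* above 1, *Cxcl1* (with intervals that overlap in the top panel) and *Ackr4* less often, and *Cx3cl1*, *Ccl2* and *Ackr3* have overlapping intervals.

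**Figure D2:**
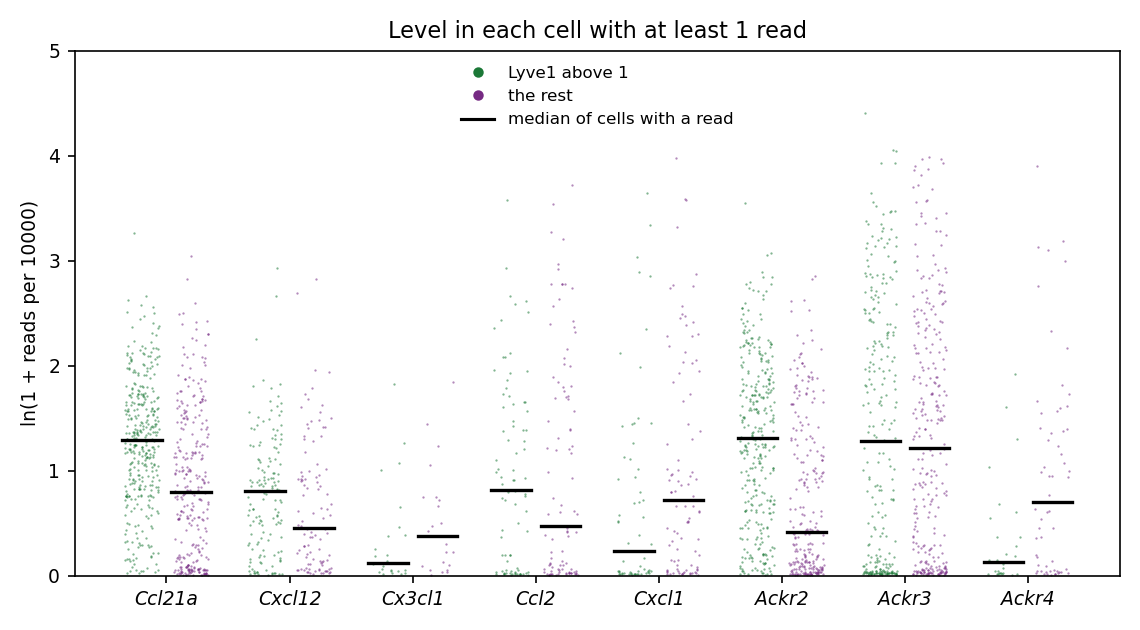
Each dot is 1 cell with at least 1 read of the gene, on the scale ln(1 + reads per 10000), with *Lyve1* above 1 (green) or in the rest (purple), and black lines are medians over those cells. The medians are 1.29 and 0.794 for *Ccl21a*, 1.31 and 0.421 for *Ackr2* and 1.28 and 1.21 for *Ackr3*, and *Cxcl10* is left out because 2 cells have it.

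Cells were next split in the same way by *Igfbp5* and by 5 genes that the study uses to tell LEC subtypes apart. Values above 1 were held for *Stab2* by 31.2% of cells, *Ptx3* by 4.99%, *Fndc1* by 16.9%, *Igfbp5* by 37.6%, *Cldn11* by 17.9% and *Gja4* by 28.5%. The splits overlap, and the share of cells that also had *Lyve1* above 1 ran from 35.1% for *Cldn11* to 72.5% for *Fndc1*. All 7 passing genes are counted below against the share of all 9655 genes that was past the limit in the same split.

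*Ackr3* and *Ackr4* varied most between these splits. *Ackr3* was found in 52.5% (46.2–58.6) of cells with *Stab2*, a scavenger receptor for hyaluronan, above 1 and in 73.4% (69.6–76.96) of the rest, a log2 ratio of −2.04. With *Igfbp5*, which encodes a binding protein of insulin-like growth factors, above 1 it was found in 80.1% (75.3–84.4) against 58.9% (54.5–63.1), a log2 ratio of 1.91. With *Fndc1* above 1 the shares were 84.5% (77.5–90.03) and 63.3% (59.6–66.9), the ratio was 1.57 and the means were 10.5 and 3.47 reads per 10000. *Ackr3* thus hardly differed by *Lyve1* but differed widely by 3 other genes, and at 20000 reads its shares were 23.2% and 55.96% by *Stab2*, 69.4% and 32% by *Igfbp5* and 74.8% and 39.8% by *Fndc1*.

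*Ackr4* followed *Ackr3* for *Stab2* and *Igfbp5* and not for *Fndc1*. It was found in 5.32% (2.94–8.77) of cells with *Stab2* above 1 and in 12.8% (10.2–15.8) of the rest. With *Igfbp5* above 1 the shares were 15.8% (11.9–20.3) and 7.24% (5.17–9.80). By *Fndc1* they were 11.3% (6.58–17.7) and 10.3% (8.14–12.8), with overlapping intervals. For *Gja4*, which encodes a connexin of lymphatic valves, the shares of *Ackr4* were 14.2% (10.01–19.2) and 8.97% (6.81–11.5), intervals that overlap, although the log2 ratio was 1.44.

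The 7 genes split differently by each marker. For *Stab2*, 1 of the 7 was higher (*Ackr2*, 0.67) and 3 lower (*Cxcl1*, *Ackr3*, *Ackr4*), against 7.06% and 5.29% of all genes. From all reads the intervals of the shares overlapped for *Cxcl1* and not for the other genes named. For *Ptx3*, 3 were higher (*Ccl21a*, *Cxcl12*, *Ackr2*) and 4 lower (*Ccl2*, *Cxcl1*, *Ackr3*, *Ackr4*), but with 42 cells above the cut 14% of all genes were higher and 16% lower. The intervals of the shares overlapped for all 7 by *Ptx3*. For *Fndc1*, 2 were higher (*Ackr2*, 0.80, and *Ackr3*) and 3 lower (*Ccl2*, *Cxcl1*, *Ackr4*), against 4.48% and 6.06%. The intervals of the shares overlapped for all 3 lower genes. The shares were 20.4% above the cut and 21.7% in the rest for *Ccl2*, and 12.7% and 19.6% for *Cxcl1*. For *Ackr4* they were 11.3% and 10.3%, so that only its mean was lower. For *Igfbp5*, 3 were higher (*Cxcl1*, 0.88, *Ackr3* and *Ackr4*) and 1 lower (*Cxcl12*, −0.83), against 3.49% and 4.56%. Here too the intervals overlapped for *Cxcl1* and not for the others. For *Cldn11*, a tight junction gene, 2 were higher (*Ccl2*, 0.59, and *Ackr4*, 0.71) and 2 lower (*Ccl21a*, −0.77, and *Ackr2*, −0.58), against 2.51% and 4.87%. The intervals of the shares overlapped for every one of these, such as 72.2% (64.3–79.2) and 80.8% (77.6–83.6) for *Ccl21a*. For *Gja4*, 1 was higher (*Ackr4*, 1.44) and 1 lower (*Cxcl1*, −0.90), against 2.47% and 3.14%, with overlapping intervals of the shares for both. By *Stab2*, *Ptx3*, *Igfbp5* and *Gja4*, *Ackr4* was found in less than 10% of the group where it was lower. In these splits it passed the filter, at 10.5% of all cells, only through the other group.

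**Figure D3:**
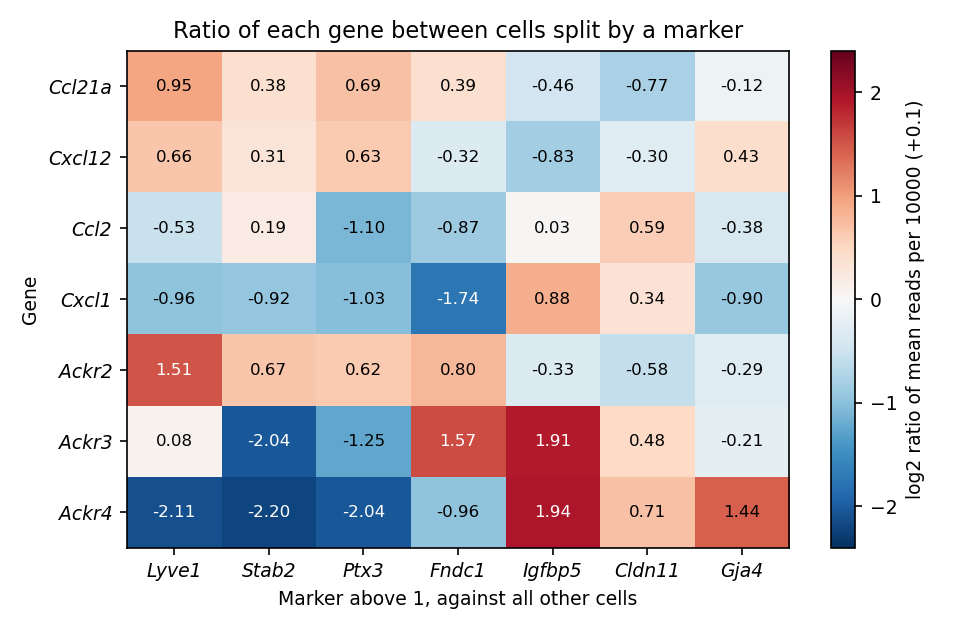
Each field gives the log2 ratio of mean reads per 10000 (plus 0.1) of a gene between cells with a marker above 1 and all other cells, with red for higher and blue for lower. *Ackr3* runs from −2.04 for *Stab2* to 1.91 for *Igfbp5*, and *Ackr4* from −2.20 for *Stab2* to 1.94 for *Igfbp5*.

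Ligands and the receptors known to bind them were compared in the same cells. *Ackr4*, the receptor of CCL21, was found in 7.35% (5.48–9.60) of the cells with *Ccl21a* and in 22.3% (16.4–29.2) of the cells without. The cells without *Ccl21a* were shallower, with a median of 116893 reads. At 20000 reads the shares of *Ackr4* were 0.982% (0.32–2.28) with *Ccl21a* and 12.1% (8.5–16.4) without. The receptor was thus found less often beside its ligand, and more clearly so at equal depth.

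The same held among cells with *Lyve1* at 1 or below, where the thinned shares were 1.03% (0.125–3.67) and 14.9% (10.5–20.2). Above the cut they were 0.952% (0.197–2.76) and 1.67% (0.0422–8.94), which overlap. From cells with no *Ccl21a* read to cells above 1.5 ln, the share with *Ackr4* was 22.3%, 13.4%, 6.76%, 6.25% and 4.12%. That of *Ackr2* was 44.6%, 69.8%, 66.2%, 79.5% and 82.99%, and that of *Ackr3* stayed between 62.8% and 69.1%. The second bin was the deepest, with a median of 635754 reads, and mean *Lyve1* was 0.613 ln in the first bin and 2.06 ln in the last. Above the *Lyve1* cut, thinned shares of *Ackr2* with and without *Ccl21a* were 72.7% (67.4–77.5) and 65% (51.6–76.9), which overlap. In the rest they were 44.8% (37.7–52.1) and 21.2% (16–27.1).

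**Figure D4:**
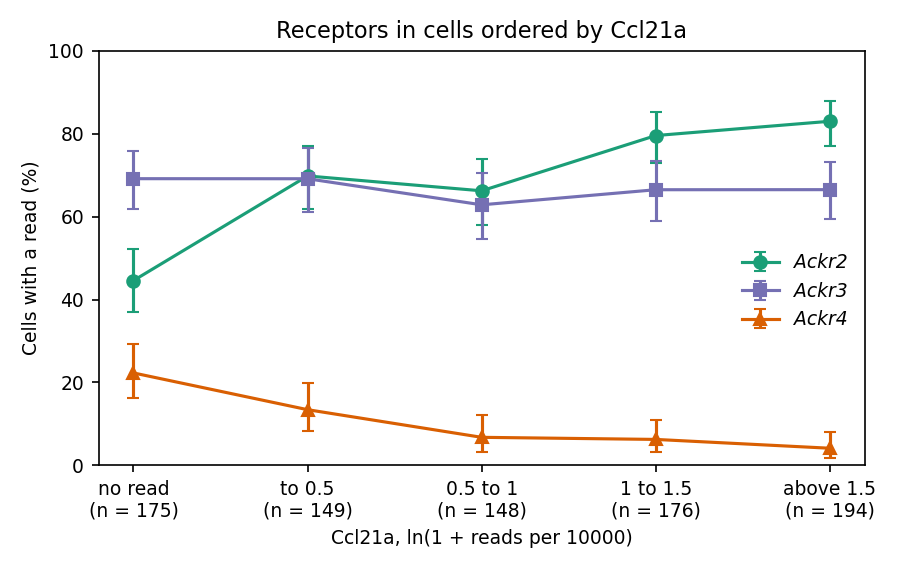
Points give the percent of cells with a read of *Ackr2*, *Ackr3* or *Ackr4* in 5 bins of the level of *Ccl21a*, with exact 95% intervals and the number of cells under each bin. The share with *Ackr4* is 22.3% in cells without *Ccl21a* and 4.12% in the highest bin, and the share with *Ackr2* is 44.6% and 82.99%. All reads were used, and *Lyve1* and depth differ between the bins.

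*Ackr3* was found in 62% (55.7–68.04) of the 250 cells with its ligand *Cxcl12* and in 68.9% (65.02–72.6) of the cells without. At 20000 reads the shares were 32.1% (25.1–39.8) and 49.4% (45.4–53.4), with 33% (24.1–42.97) and 47.1% (41–53.2) above the *Lyve1* cut and 30.6% (19.6–43.7) and 51.1% (45.8–56.5) in the rest. *Ackr3* was thus found less often beside *Cxcl12* at equal depth, although the intervals above the cut overlap. *Cxcl12* and *Ackr3* also went in opposite directions by 2 markers. *Cxcl12* was found in 39.5% of cells with *Stab2* above 1 and 25.2% of the rest, and by *Igfbp5* in 21.8% and 34.5%. By *Fndc1* its shares were 29.6% and 29.7%. Whether the pair differed within groups by these markers was not tested. For *Ackr2* and *Ccl2* the shares overlapped. *Ackr2* was found in 74% (67.01–80.3) of cells with *Ccl2* and in 67.6% (63.9–71.2) of cells without, and at 20000 reads in 59.8% (49.6–69.4) and 49.5% (45.7–53.3), with overlapping intervals both times.

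*Ccl2* and *Cxcl1* are known to be induced by NF-kB and by stress, and *Cxcl10* by interferon, so they were set beside lists of such genes with the 9 genes left out. Cells were put in 4 equal groups by the mean ln value of each list. In the group lowest in dissociation genes *Cxcl1* was found in 9.48% (5.89–14.3), and in the highest group in 25.1% (19.4–31.5), with 0.0624 and 1.05 reads per 10000 and a log2 ratio of 2.82. *Ccl2* was found in 13.7% (9.40–19.1) and 21.8% (16.4–27.99), intervals that overlap, with a log2 ratio of 0.78. The highest group was also the deepest, with a median of 513148 reads against 291032. At 20000 reads the shares were 3.03% and 16.3% for *Cxcl1* and 6.06% and 13.9% for *Ccl2*.

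For the NF-kB list *Ccl2* was found in 12.8% (8.61–18.1) of the lowest group and in 29.4% (23.3–36.03) of the highest, with 0.304 and 1.77 reads per 10000 and a log2 ratio of 2.21. *Cxcl1* was found in 13.7% (9.40–19.1) and 26.1% (20.3–32.5), a log2 ratio of 1.83. Both ligands were thus found more often in the cells high in other NF-kB genes, at 21% against 6.19% for *Ccl2* and 19.5% against 6.19% for *Cxcl1* after thinning. *Ccl7*, a neighbour of *Ccl2* on chromosome 11 and likewise a monocyte chemokine, was found in 11.8% and 20.9%, with a log2 ratio of 2.71.

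By interferon genes *Ccl2* was found in 22.3% and 22.3% and *Cxcl1* in 17.1% and 17.1% of the lowest and the highest group. Of the 2 cells with *Cxcl10*, 1 lay in the third group and 1 in the highest.

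*Ackr2* was lower in the group highest in dissociation genes, with a log2 ratio of −1.08 and overlapping shares of 63.5% (56.6–70.01) against 72.99% (66.5–78.9) in the lowest group. At 20000 reads the shares were 43.1% (36.1–50.2) and 57.6% (50.4–64.6), which do not overlap. *Lyve1* above 1 was held by 42.7% of that group and 57.3% of the lowest, and its part in the difference was not tested. For the dissociation list, 3 of the 7 passing genes were higher (*Ccl2*, *Cxcl1*, and *Ackr4*, 0.87) and 2 lower (*Ackr2*, and *Ccl21a*, −0.51), against 7.9% and 16.3% of all genes. The shares of *Ackr4* were 11.4% (7.43–16.5) in the highest group and 9.95% (6.27–14.8) in the lowest, which overlap. *Ackr4*, at 10.5% of all cells, thus passed the filter only through the highest group. For *Ccl21a* the shares were 76.3% (69.98–81.9) and 84.8% (79.3–89.4), which also overlap. For the NF-kB list 2 of 7 were higher and 0 lower, against 9.18% and 11%. By interferon genes *Ackr4* passed the filter only through the lowest group, with 11.4% there and 9.95% in the highest. For the interferon list 1 was higher (*Cxcl1*, 0.78) and 2 lower (*Ackr3*, −0.81, and *Ackr4*, −1.66), against 4.68% and 6.07%, with overlapping intervals of the shares for all 3. Whether the cells held such RNA in the tissue or gained it during isolation cannot be told apart here.

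**Figure D5:**
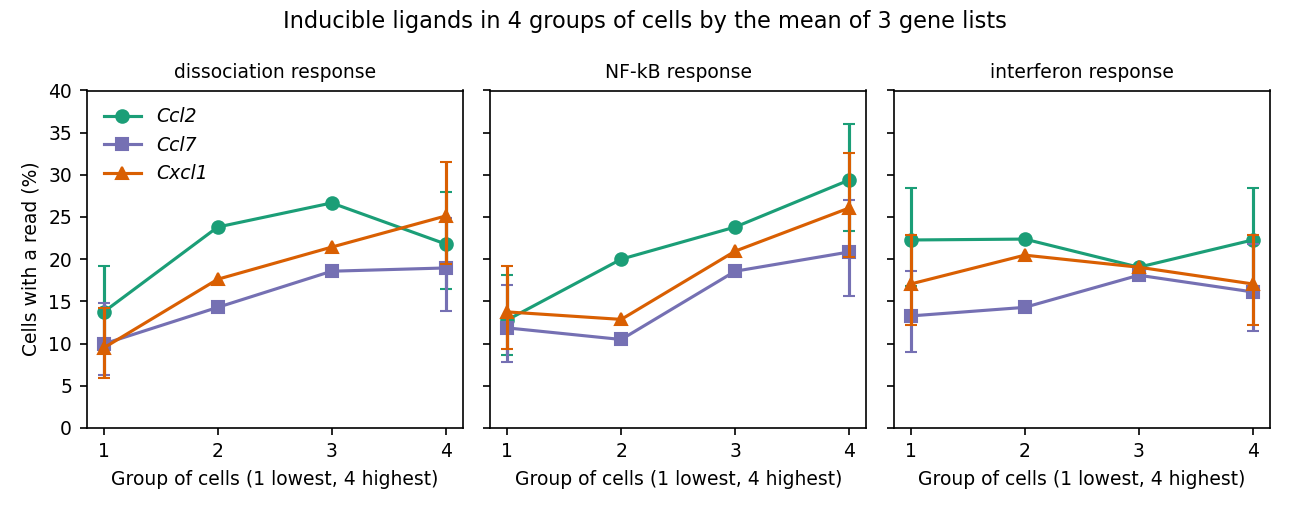
Lines give the percent of cells with a read of *Ccl2*, *Ccl7* and *Cxcl1* in 4 equal groups of cells from lowest (1) to highest (4) mean of the dissociation, NF-kB and interferon lists, with exact 95% intervals for the first and the last group. *Ccl2* runs from 12.8% to 29.4% over the NF-kB groups and is at 22.3% in the lowest and the highest interferon group.

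The 250 bases before the RefSeq start site were searched on both strands for the letters GGNNTTTCC (NF-kB), TGANTCA (AP-1) and GAAANNGAA (interferon regulatory factors). Such letters occurred in 4.93%, 6.75% and 7.13% of 32851 promoters. *Cxcl1* had 2 NF-kB matches, 89 and 70 bases before the start, *Ackr4* had 1, 230 bases before it, and *Cxcl10* had 1 match of each kind. *Ccl21a*, *Cxcl12*, *Cx3cl1*, *Ackr2* and *Ackr3* had none of the 3, and *Ccl2* was not analysed here. The promoter of *Cxcl1* at chr5:90890995-90891244 (plus strand, GRCm38.p6) is shown with its matches in capitals, and that of *Ackr2* at chr9:121898105-121898354 (plus strand) for comparison, since the pair differed in sign with the dissociation list. By the NF-kB list the log2 ratios were 1.83 for *Cxcl1*, 0.05 for *Ackr2* and −0.30 for *Ackr4*. Any part of these letters in the levels was not tested. A match is a run of letters and no evidence of binding.
Cxcl1 promoter: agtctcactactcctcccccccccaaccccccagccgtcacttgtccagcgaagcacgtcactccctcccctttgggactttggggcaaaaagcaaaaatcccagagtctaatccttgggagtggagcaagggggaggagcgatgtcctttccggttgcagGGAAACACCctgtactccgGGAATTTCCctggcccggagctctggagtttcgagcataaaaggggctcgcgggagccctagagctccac
Ackr2 promoter: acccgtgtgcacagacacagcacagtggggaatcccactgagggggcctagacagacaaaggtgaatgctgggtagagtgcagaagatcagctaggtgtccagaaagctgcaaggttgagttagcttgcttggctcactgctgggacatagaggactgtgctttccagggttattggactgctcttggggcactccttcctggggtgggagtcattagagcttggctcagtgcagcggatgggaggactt

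Over all cells, the genes whose values were most like those of each member were named by Pearson's r among the 9655 genes. Cells share plates and depth that are not labelled, so r is a description. *Ccl21a* was most like *Lyve1* (0.38), *Nrp2* (0.34), a co-receptor of VEGF-C signalling, and *Reln* (0.34). *Ackr2* was likewise most like *Lyve1* (0.42), followed by *Mgll* (0.36) and the water channel gene *Aqp1* (0.34). *Cxcl12* was most like *Aqp1* (0.25), *Gmfg* (0.22) and *Itga1* (0.21).

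*Ackr3* had the highest likeness, with *Tagln2* (0.44), *Igfbp5* (0.43) and the intermediate filament gene *Vim* (0.40). *Ackr4* was most like *Ahsg* (0.33), *Apoe* (0.29) and *Gcnt1* (0.28). The 3 genes most opposed to it were the lymphatic endothelial markers *Reln* (−0.26) and *Mmrn1* (−0.21), and then *Ccl21a* (−0.20). The r of *Ackr4* rests on the few cells with high values. *Ccl2* was most like its neighbour *Ccl7* (0.25), then *Relb* (0.20) and *Nfkbia* (0.18), both of NF-kB signalling. *Cxcl1* was most like *Ier3* (0.20), *Zc3h12a* (0.17) and *Zfp36* (0.17), the last 2 being regulators of the decay of inflammatory mRNA. *Ier3*, *Zfp36*, *Relb* and *Nfkbia* are on the response lists used above. At 20000 reads the first gene was the same for every one of the 7 except *Ackr3*, where *Igfbp5* came before *Tagln2*. Lower places were less stable, as *Zc3h12a* came to rank 22 for *Cxcl1* and *Gcnt1* to rank 19 for *Ackr4*.

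Most of the remaining chemokine genes were found in few cells. Of 34 other ligands listed, 16 were among the genes analysed, 5 of them were found in at least 10% of cells and 0 were past the limit by *Lyve1*. Of all 23168 genes, 9655 were found in at least 10% of cells, and of these 3.53% were higher and 3.3% lower by *Lyve1*. Apart from *Ccl21b* and *Ccl21c*, these were *Ccl7* (15.4%), *Ccl27a* (13.2%) and *Cxcl17* (11.9%). *Ccl19* had no read in any cell, which allows a share of up to 0.356% (again taken as 3 counts). None of the 9 signalling chemokine receptors analysed reached 10% of cells, and *Ccr7* and *Cxcr4* had no read in any cell. Of the other atypical receptors, *Gpr182* was found in 71.02% of cells (67.8–74.1), with a log2 ratio of 0.26 by *Lyve1*, while *Ccrl2* was found in 4.87% and *Ackr1* in 0.713%. The exons of *Gpr182* overlap those of *Zbtb39* on the other strand. *Gpr182* was thus found about as widely as *Ackr2* and *Ackr3*, and per kilobase of exon it had 0.447 reads per 10000.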

How the data were processed

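Adult nasopharyngeal LECs were profiled by Smart-seq3. Per the labels and methods, the authors used STAR for alignment to mm10, featureCounts (Subread) for counts per gene and Seurat 4.1.0 for a filter on cells and normalization. The deposited unit is ln, the natural log of (1 + reads per 10000): the methods name a log2 scale, but the cells came to 10000 in sum only when read as natural logs. Strand, annotation and the treatment of reads that fit several genes are not given in the sources used here, and reads, not molecular identifiers, were taken as counted. How doublets were treated is not stated, and no doublet caller was run. Of 1536 wells listed, 842 cells are in the matrix, with 7433 to 3524358 reads each. Whole reads were recovered from the values (100% within 0.01), and 791 cells were thinned to 20000 reads, leaving out 51. All cells are 1 pooled sample, so no test was made. *Lyve1* was above 1 in 407 cells and not in 435 (375 and 416 thinned). Values above 1 were held for *Stab2* by 263 cells, *Ptx3* by 42, *Fndc1* by 142, *Igfbp5* by 317, *Cldn11* by 151 and *Gja4* by 240, *Ccl21a* had a read in 667 cells, and the 4 groups by each list had 210 or 211 cells. Shares have exact binomial intervals. Log2 ratios used means of reads per 10000 plus 0.1. The design set these as descriptions over all genes found in at least 10% of cells. The members and gene lists were chosen with earlier results of these data known. Genes were named as all 9 members, the 3 most like each, and up to 5 per list found in at least 30% of cells or past the log2 limit of 0.5. Python 3.11.15, NumPy 2.4.6, pandas 2.3.3, SciPy 1.17.1 and matplotlib 3.10.9 were used, and the steps were tested on simulated data. Positions come from GENCODE M21 and promoters from RefSeq (GRCm38.p6). Alternatives changed the pseudocount, the *Lyve1* cut, depth, filters and the measure.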

Additional observations from a re-analysis of the deposited data

How the results depend on the processing

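For each gene 11 other settings were tried by *Lyve1*, of which leaving out cells with a marker of another cell type was chosen after seeing the data. The signs of *Ccl21a*, *Ackr2*, *Ccl2*, *Cxcl1* and *Ackr4* were kept in all of them. *Cxcl12* changed sign with *Lyve1* cut at any read (−0.19), and the cause was not tested. With that cut *Ccl21a* was at 0.39, *Ackr2* at 0.83 and *Ackr4* at −0.29. A pseudocount of 1 gave 0.67 for *Ccl21a*, 1.03 for *Ackr2* and −0.55 for *Ackr4*, and one of 0.01 gave −3.25 for *Ackr4*. From differences of mean ln values, *Ccl21a* was at 0.79, *Cxcl12* at 0.19, *Cxcl1* at −0.17, *Ackr2* at 0.93 and *Ackr4* at −0.16. In cells with at least 100000 reads *Ccl21a* was at 1.10 and *Ackr3* at −0.15, and with at least 3000 genes *Ccl21a* was at 1.10. Without the 1% of cells highest for the gene *Ackr4* was at −0.82. *Ccl2* ran from −0.83 to −0.04 and was past 0.5 in 5 of the 11.

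Of all genes tested, 3.53% were higher and 3.3% lower by *Lyve1*. These shares were 0.559% and 0.539% with a pseudocount of 1, 7.75% and 6.71% with one of 0.01, 0.414% and 0.331% from mean ln values, 2.35% and 1.98% without the highest 1% of cells, and 1.86% and 1.89% with no filter on low values, while 7.85% were higher with *Lyve1* cut at any read. A value above 1 was held by 43.9% of cells for *Ccl21a*, 8.43% for *Cxcl12*, 0.950% for *Cx3cl1*, 8.91% for *Ccl2*, 6.06% for *Cxcl1*, 0% for *Cxcl10*, 34.8% for *Ackr2*, 35.9% for *Ackr3* and 3.33% for *Ackr4*. At 20000 reads the shares with a read were 64.3%, 20.9%, 2.65%, 12.9%, 11.8%, 0.126%, 50.8%, 45.8% and 4.93% in the same order. Depth limits the shares of *Cx3cl1*, *Cxcl10* and *Ackr4* most, and with 1 pooled sample no difference between mice could be measured.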

Other observations

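Genes that shape how chemokines are held at the surface or released were widely found. Of 14 such genes listed, 11 were found in at least 10% of the LECs, as were 9655 of all 23168 genes. *Adam10*, a protease that sheds membrane-bound CX3CL1 and CXCL16, was found in 89.3% of cells, and the related *Adam17* in 48.3%. The syndecan genes *Sdc3* and *Sdc1*, whose proteins carry heparan sulfate that binds chemokines, were found in 58.9% and 51.8%, and *Ext2*, which extends heparan sulfate, in 46.4%. By *Lyve1* these 5 had log2 ratios between −0.01 (*Sdc1*) and 0.31 (*Adam17*). The 1 gene past the limit, *Sdc4*, is named after its values were seen. It was found in 12% of cells with *Lyve1* above 1 and in 26.7% of the rest, with a log2 ratio of −1.48. Of all 9655 genes, 3.53% were higher and 3.3% lower by as much as the limit.

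Of 12 genes listed for the passage of leukocytes, 9 were found in at least 10% of cells, as were 9655 of all 23168 genes. *Stab1*, *Pecam1* and *F11r* were found in 99.9%, 99.6% and 98.7%, and *Icam1*, an NF-kB target that holds leukocytes, in 74.8% with a log2 ratio of −0.23. *Mrc1*, the mannose receptor, was higher with *Lyve1* above 1, found in 54.5% against 29.9% with a log2 ratio of 1.16. *Jam3*, also named after its values were seen, was lower, with 27.3% against 40.2% and a log2 ratio of −0.52. Thus 1 of the 9 was higher and 1 lower, against 3.53% and 3.3% of all genes.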
